A study of Saccharomyces cerevisiae with 25 samples.

Results

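The HAP genes of budding yeast encode the activators that switch on respiration genes. The 5 genes *HAP1* (YLR256W), *HAP2* (YGL237C), *HAP3* (YBL021C), *HAP4* (YKL109W) and *HAP5* (YOR358W) were chosen by name and identifier from the 6713 genes listed. All 5 had a count above 0 in every library, as did 5713 of the listed genes. Hap2, Hap3 and Hap5 bind DNA together at CCAAT boxes, and Hap4 joins them and supplies the activation domain. *HAP4* is the subunit whose transcription is known to be repressed by glucose and raised when cells respire. Hap1 is a separate, heme-responsive zinc cluster activator of cytochrome and sterol genes.

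RNA was sequenced from 25 cultures of 5 haploid BY strains (derived from BY4741, of the S288C background, with *his3*, *leu2*, *met15* and *ura3* deletions), 5 cultures per strain, all growing in synthetic medium with glucose. *RGT2(V539I)* carried a missense change in the glucose sensor Rgt2, *OAF1(L63S)* a missense change in Oaf1, a transcription factor that oleate activates, and *OLE1(FAR)* a change in the fatty acid regulated region of the promoter of the desaturase gene *OLE1*. The wild types were YFA1131, in which the BY allele had replaced a deletion of *RGT2*, and YFA1130, in which a GFP tag had been removed from *FAA4*. The first edit was compared with YFA1131 and the other edits with YFA1130, so these last comparisons share their control libraries. Each strain was a single edited isolate, and its cultures repeat the strain and not the edit. Cultures were harvested in 3 batches, with 6, 7 and 12 libraries. Strains were unequally spread over them, and harvest 1 held 1 library of *RGT2(V539I)*, 2 of *OAF1(L63S)*, 0 of *OLE1(FAR)*, 2 of YFA1131 and 1 of YFA1130, so plain means by harvest mix harvest with strain. Total estimated counts per library ran from 9216530 to 14645000.

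In the libraries labelled *OAF1(L63S)* culture A and *OLE1(FAR)* culture C, genes that mark the edits went against the labels. Levels are given in CPM, each count scaled by library size with TMM factors. *POX1*, a peroxisomal oxidase gene under Oaf1, was at 17 to 22.8 CPM in 4 of the *OAF1(L63S)* cultures and at 1.58 CPM in culture A, against 0.649 to 2.84 CPM in YFA1130. In *OLE1(FAR)* culture C, *POX1* was at 28.4 CPM, and in its other 4 cultures at 0.419 to 2.00 CPM. *MGA2*, an activator of *OLE1*, was at 289 CPM in *OAF1(L63S)* culture A and at 101 to 128 CPM in its other cultures. It was at 119 CPM in *OLE1(FAR)* culture C and at 281 to 315 CPM in its other cultures, against 189 to 229 CPM in YFA1130. *IZH4*, a membrane protein gene, was at 47.6 CPM in *OAF1(L63S)* culture A and at 2.63 to 3.67 CPM in its other cultures. It was at 2.43 CPM in *OLE1(FAR)* culture C and at 45.3 to 50.7 CPM in its other cultures, against 11.1 to 19.6 CPM in YFA1130. Each of these libraries thus lay near the other strain's level in all 3 genes; whether the samples had been exchanged was not tested. The labels were kept, and the fits of *OAF1(L63S)* and *OLE1(FAR)* are also given without both libraries. *HXT1*, a hexose transporter gene that marks the *RGT2* edit, was at 913 to 1060 CPM in *RGT2(V539I)*, below all 5 cultures of YFA1131 (1215 to 1658 CPM). The other wild type, YFA1130, was at 1016 to 1347 CPM, which overlapped *RGT2(V539I)*.

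Sequence features of the 5 genes were read from the RefSeq R64 assembly, the build that the authors used under the name sacCer3. *HAP1* lies on chromosome XII from 646415 to 650923 on the forward strand and has a single exon of 4509 bases. The Ty1 retrotransposon YLRWTy1-3 starts at 650824 within it, so 4409 bases of the open reading frame come before the transposon and the last 100 are Ty1 sequence. This insertion is a known feature of S288C, whose Hap1 is less active than that of other strains. The junction and the end of the annotated frame are shown because they bound the Ty1 part of the annotated frame. Capitals mark Ty1 bases in the junction (chrXII:650809-650838) and the stop codon in the end (chrXII:650894-650923), both on the forward strand.
HAP1 junction: tgttgaaattgatggTGTTGGAATAAAAAT
HAP1 end: ttagaagatgacgcaaatgatgagaaaTAG

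Of the 4479 stretches of 31 bases in *HAP1*, 74 occurred elsewhere in the genome, while every such stretch of the other 4 genes was unique. None of the 5 overlaps another annotated gene. All of their estimated counts were whole numbers, in all 25 libraries. *HAP2* lies on chromosome VII (52731 to 53528, reverse strand), *HAP3* on II (181660 to 182094, reverse strand), *HAP4* on XI (232227 to 233891, forward strand) and *HAP5* on XV (1010161 to 1010889, forward strand), each as 1 exon.

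The CCAAT box recognised by Hap2/3/5 was searched for as the letters CCAATNA on both strands of the 500 bases before each start codon. Of 6002 protein-coding genes, 24.3% held at least 1 match. *HAP4* and *HAP3* held 1 match each, and *HAP1*, *HAP2* and *HAP5* none in this window. Of 23 genes listed as targets of Hap2/3/4/5, 19 held a match. The matches of *HAP4* (chrXI:232121-232149, reverse strand) and *HAP3* (chrII:182142-182170, reverse strand) are shown so that their letters and flanks can be compared with all 10 matches of the 6 target genes called in *RGT2(V539I)* that held one. These lie upstream of *RIP1* (chrV:107002-107030, forward strand), *COX5A* (chrXIV:531567-531595, reverse strand) and *SDH2* (chrXII:54068-54096, reverse strand). *SDH3* held 2 (chrXI:179507-179535, reverse strand, and chrXI:179627-179655, forward strand) and *PET9* 2 (chrII:164270-164298, reverse strand, and chrII:164290-164318, forward strand). *COX6* held 3 (chrVIII:209354-209382 and chrVIII:209408-209436, forward strand, and chrVIII:209477-209505, reverse strand). Capitals mark the matched letters.
HAP4 site: gtactaggagaCCAATAAatatgtgtgga
HAP3 site: gtagctttccgCCAATCAaactcaagagc
RIP1 site: tccataacggaCCAATCAgcgttttgcgc
COX5A site: aaaacgtagggCCAATCAcaaacgaggaa
SDH2 site: ctcgcattggcCCAATTAgctccggtgta
SDH3 first site: ggctaccgcagCCAATCAgaatggacctg
SDH3 second site: accaaaaattgCCAATCAcaagctctaag
PET9 first site: tagagcgcgggCCAATGAgaaggccccac
PET9 second site: cgcgctctacaCCAATCAgcatagcgcat
COX6 first site: aacagaaaattCCAATCAaaaagttggtg
COX6 second site: ctccatacgagCCAATCAgggccccgcgc
COX6 last site: ctttgaccggaCCAATTAggtcccttttc
A match is a description of letters and not evidence of binding. The *HAP4* match reads CCAATAA and lies 89 bases before its start codon, and that of *HAP3* reads CCAATCA and lies 59 bases before its own. Of the 10 matches of the targets, 7 read CCAATCA, 2 CCAATTA and 1 CCAATGA.

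Levels differed widely among the 5 genes. Per kb of coding length, the median level was 118 CPM per kb for *HAP4* and 107 CPM per kb for *HAP1*, and the order of these neighbours was open, since *HAP4* was above *HAP1* in 13 of 25 libraries. *HAP3* followed at 40.6 CPM per kb, and was above *HAP5* (21.8 CPM per kb) and *HAP2* (20.7 CPM per kb) in 25 of 25 libraries. *HAP5* was above *HAP2* in 12 of 25 libraries, so the order of these subunits was open too. The 3 DNA-binding subunits were thus the least abundant members. Their estimated counts ran from 141 to 263 for *HAP2*, 156 to 270 for *HAP3* and 123 to 229 for *HAP5*, against 982 to 4699 for *HAP4* and 3730 to 7728 for *HAP1*. Each library pooled a whole culture, so fewer expressing cells and less RNA per cell cannot be told apart.

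**Figure D1:**
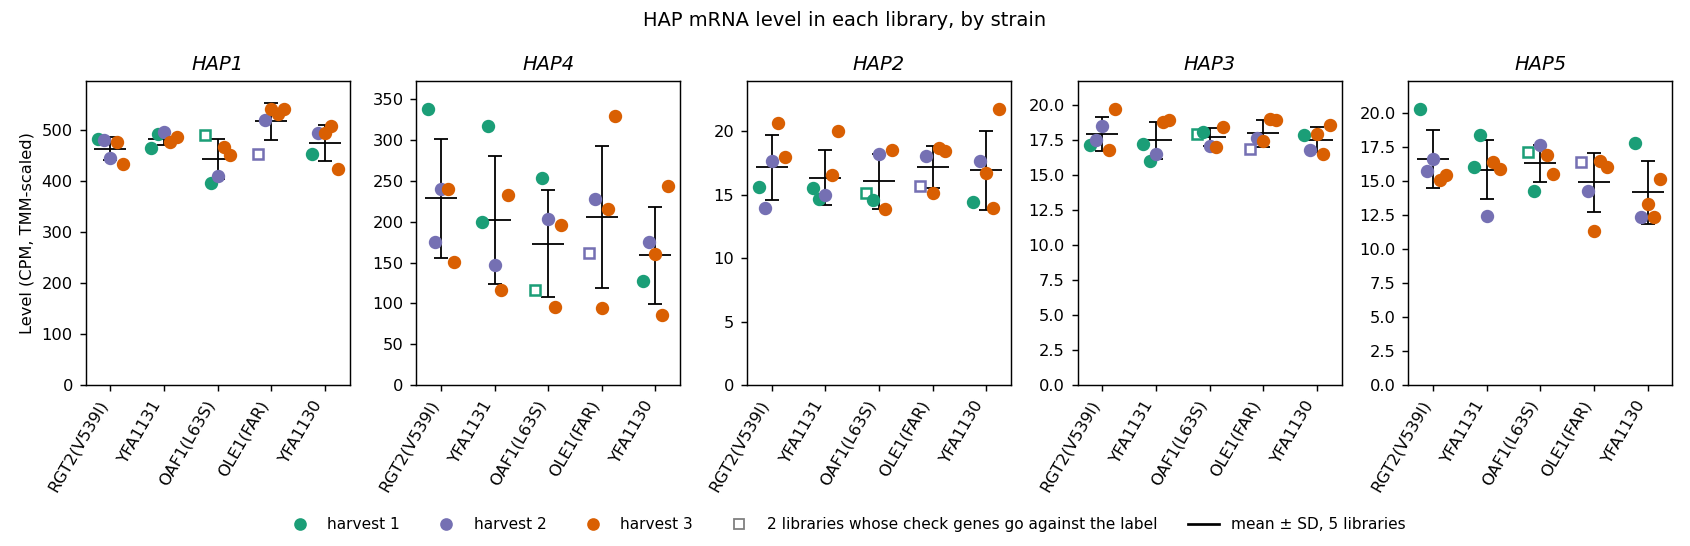
Level of each HAP gene (vertical axis, CPM after TMM scaling, from 0) in the 25 libraries by strain; points are libraries coloured by harvest, bars are the mean ± SD of 5 cultures, and open squares are the 2 libraries whose check genes went against the label. *HAP4* ran from 85.8 to 339 CPM with wide overlap of all strains, while *HAP3* stayed between 16.05 and 19.8 CPM.

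*HAP4* stood apart from the other members in how far it varied between cultures of the same strain. It was at 339, 175, 241, 240.1 and 151 CPM in *RGT2(V539I)* cultures B, C, D, F and G, against 200.2, 317, 147, 116 and 233 CPM in YFA1131 cultures A, B, C, E and F. In *OAF1(L63S)* it was at 117, 253, 204, 95.7 and 196 CPM in cultures A, B, D, E and F. *OLE1(FAR)* cultures C, D, E, F and G had 162, 227, 93.7, 215 and 329.7 CPM, against 127, 176, 161, 85.8 and 244 CPM in YFA1130 cultures A, D, E, F and G. Every strain thus held cultures of low and of high *HAP4*, and the ranges of all 5 strains overlapped. Without *OAF1(L63S)* culture A and *OLE1(FAR)* culture C, *HAP4* averaged 187 ± 66.1 CPM in *OAF1(L63S)* and 216 ± 96.6 CPM in *OLE1(FAR)* (SD, n = 4 each), against 173 ± 65.3 and 206 ± 87.1 CPM with them. The highest library was 3.95 times the lowest, and within a strain the ratio ran from 2.25 in *RGT2(V539I)* to 3.52 in *OLE1(FAR)*.

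The coefficient of variation of *HAP4* over the 25 libraries was 36.9%, against the 2.31% that its counts alone would give. The SD of its log2 CPM was 0.56, and only 66 of the 5441 genes with at least 10 counts in every library had a larger one (median of these genes 0.12). Strain accounted for 12.6% of the variance of *HAP4* in log2 CPM and harvest for 6.17%, beside medians of 10.7% and 14.3% over the same genes. RNA isolation batch accounted for 16.5%.

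*HAP1* varied little between cultures, with a coefficient of variation of 7.95% (counting alone, 1.37%), but more of its variance lay between strains than for most genes. Strain accounted for 42.5% of it, beside the median of 10.7%. *OLE1(FAR)* cultures D, E, F and G had 519.9, 541, 531 and 542 CPM and culture C had 454 CPM, against 452, 494.1, 494.4, 508 and 423 CPM in YFA1130 cultures A, D, E, F and G. The 4 cultures of *OLE1(FAR)* other than C lay above all 5 of YFA1130, and culture C lay within their range. *OAF1(L63S)* cultures B, D, E and F had 396, 409, 467 and 452 CPM, and culture A had 489.6 CPM. Culture A was the highest of its strain, and B and D lay below every YFA1130 culture. The libraries with check genes against their labels were thus also the ones at the far end of *HAP1* in each strain. *HAP1* averaged 443 ± 39.4 CPM in *OAF1(L63S)* and 518 ± 36.6 CPM in *OLE1(FAR)*, against 474 ± 35.4 CPM in YFA1130 (SD, n = 5 each). The means without *OAF1(L63S)* culture A and *OLE1(FAR)* culture C were 431 ± 33.9 CPM in *OAF1(L63S)* and 533 ± 10.3 CPM in *OLE1(FAR)* (SD, n = 4 each). *HAP1* was at 434 to 484 CPM in *RGT2(V539I)*, against 464 to 496 CPM in YFA1131, and these ranges overlapped.

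*HAP2*, *HAP3* and *HAP5*, the DNA-binding subunits, were alike in CPM and differed in spread. *HAP3* had a coefficient of variation of 5.41%, below the 7.11% of counting error alone, so no spread beyond counting was detectable. *HAP2* ran from 13.8 to 21.8 CPM with 13.3% (counting 7.36%), and *HAP5* from 11.4 to 20.4 CPM with 13.5% (counting 7.63%). By strain, *HAP2* averaged 17.2 ± 2.55 CPM in *RGT2(V539I)*, 16.1 ± 2.16 in *OAF1(L63S)*, 17.2 ± 1.66 in *OLE1(FAR)*, 16.3 ± 2.18 in YFA1131 and 16.9 ± 3.13 in YFA1130 (SD, n = 5 each). *HAP3* averaged 17.9 ± 1.20, 17.7 ± 0.619, 18 ± 0.958, 17.5 ± 1.33 and 17.5 ± 0.875 CPM in the same order (SD, n = 5 each). *HAP5* averaged 16.7 ± 2.14 CPM in *RGT2(V539I)*, 16.3 ± 1.39 in *OAF1(L63S)*, 14.9 ± 2.19 in *OLE1(FAR)*, 15.9 ± 2.17 in YFA1131 and 14.2 ± 2.32 in YFA1130 (SD, n = 5 each). Without the same pair of libraries *OAF1(L63S)* averaged 16.3, 17.7 and 16.1 CPM and *OLE1(FAR)* 17.6, 18.3 and 14.56 CPM for *HAP2*, *HAP3* and *HAP5* (n = 4 each).

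No HAP gene passed the 10% FDR in the *RGT2(V539I)* strain against YFA1131, where 1.05% of all 5713 genes did (edgeR). DESeq2 called none either, and at an unadjusted p under 0.05 the count was 0 of 5, beside 6.72% of all genes. The log2 fold change of *HAP5* was 0.19 (SE 0.092, 95% confidence interval -0.0044 to 0.38). For *HAP3* it was 0.059 (interval -0.078 to 0.20), for *HAP2* 0.0036 (-0.16 to 0.16) and for *HAP1* -0.033 (-0.13 to 0.064). *HAP4* had a fitted log2 fold change of 0.00051 (SE 0.11, interval -0.24 to 0.24), which became 0.39 (SE 0.33) without surrogate variables.

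**Figure D2:**
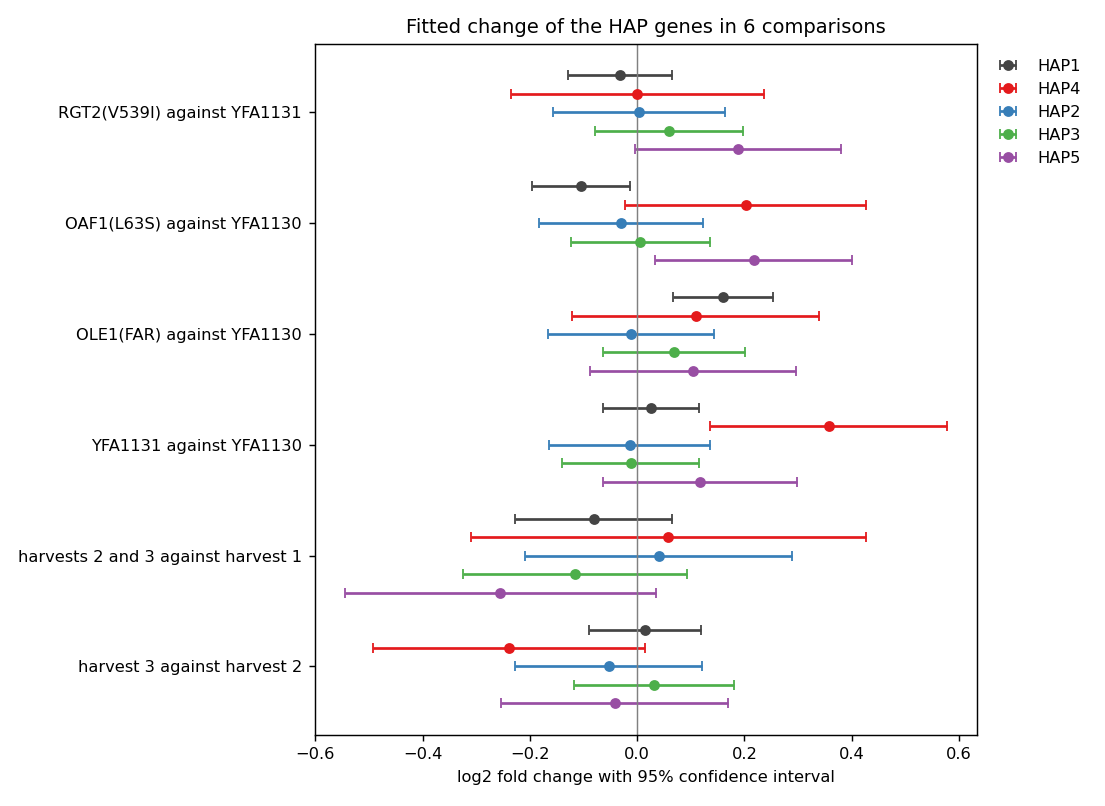
Fitted log2 fold change of each HAP gene (horizontal axis) in the 6 comparisons (vertical axis); points are edgeR estimates from all 25 libraries and bars are 95% confidence intervals. The interval of *HAP1* in *OLE1(FAR)* ran from 0.066 to 0.25 and that of *HAP4* in YFA1131 against YFA1130 from 0.14 to 0.58, and neither gene passed the 10% FDR. All intervals are from the fit with surrogate variables, which had r = -0.69 and -0.59 with *HAP4*. Without them its value between the wild types was 0.21, with a larger SE.

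In *OAF1(L63S)* against YFA1130, 0 of 5 HAP genes passed the FDR in edgeR or DESeq2, beside 1.23% of all genes in edgeR. With an unadjusted p under 0.05 there were 2 of 5, beside 6.11% of all genes. These were *HAP1*, with a log2 fold change of -0.10 (SE 0.043, edgeR unadjusted p = 0.026, adjusted p = 0.61), and *HAP5*, with 0.22 (SE 0.088, edgeR unadjusted p = 0.023, adjusted p = 0.60). *HAP4* had 0.20 (SE 0.11), which was 0.0067 (SE 0.33) without surrogate variables. *HAP2* had -0.030 (interval -0.18 to 0.12) and *HAP3* 0.0058 (interval -0.12 to 0.14). Without *OAF1(L63S)* culture A and *OLE1(FAR)* culture C the FDR was passed by 1.64% of genes and the unadjusted threshold by 6.89%. Then no member was past the FDR in edgeR and 3 of 5 had an unadjusted p under 0.05, *HAP1* at -0.10 (SE 0.045), *HAP5* at 0.21 (SE 0.094) and *HAP4* at 0.25 (SE 0.088, edgeR adjusted p = 0.35). With single libraries left out, *HAP1* ran from -0.15 to -0.054 (nearest zero without *OAF1(L63S)* culture D, and -0.058 without B), *HAP5* from 0.13 (without *OAF1(L63S)* culture E) to 0.32 and *HAP4* from 0.068 (without YFA1130 culture A, and 0.084 without G) to 0.28.

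*HAP1* had a log2 fold change of 0.16 (SE 0.045) in *OLE1(FAR)* against YFA1130, a 1.12-fold difference that did not pass the FDR in edgeR (unadjusted p = 0.0021, adjusted p = 0.18). It was the 1 of 5 members with an unadjusted p under 0.05, beside 7.75% of all genes, and 0.875% of all genes passed the FDR. DESeq2 called it (adjusted p = 0.065), and so did edgeR without *OLE1(FAR)* culture F (adjusted p = 0.079). Over 21 alternatives the log2 fold change stayed between 0.10 and 0.18, and the adjusted p between 0.065 and 1 (edgeR, or DESeq2 for 1 of them). The fit that left YFA1130 culture G out gave 0.10 (edgeR adjusted p = 0.83). Without *OAF1(L63S)* culture A and *OLE1(FAR)* culture C it was 0.16 (SE 0.051, edgeR adjusted p = 0.46), where 0.542% of genes passed the FDR and 6.35% the unadjusted threshold. *HAP4* had 0.11 (SE 0.11), *HAP5* 0.10 (SE 0.091), *HAP3* 0.069 (SE 0.063) and *HAP2* -0.012 (SE 0.074), and for *HAP4* the value was 0.38 (SE 0.32) without surrogate variables. With single libraries left out, *HAP5* ran from 0.0020 (without YFA1130 culture D) to 0.15 and *HAP3* from 0.050 to 0.089.

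Of the 4 comparisons between strains, that of the wild types gave *HAP4* its largest fitted difference with surrogate variables. *HAP4* averaged 203 ± 78.3 CPM in YFA1131 and 159 ± 59.1 CPM in YFA1130 (SD, n = 5 each). The log2 fold change was 0.36 (SE 0.11, edgeR unadjusted p = 0.0032, adjusted p = 0.26), and 0.21 (SE 0.33) without surrogate variables. By edgeR and by DESeq2, 0 of 5 members passed the FDR, beside 0.123% of all genes. With an unadjusted p under 0.05 there was 1 of 5, beside 9.71% of all genes. Without YFA1130 culture G the value for *HAP4* was 0.21 and without its culture A 0.21. The other members had log2 fold changes of 0.12 (*HAP5*), 0.025 (*HAP1*), -0.012 (*HAP3*) and -0.014 (*HAP2*). *HAP5* ran from 0.039 (without YFA1130 culture D) to 0.21 (without YFA1130 culture A) with single libraries left out.

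Harvest accounted for 24.2% of the variance of *HAP2* in log2 CPM, 20.4% of that of *HAP3* and 20.4% of that of *HAP5*, beside the median of 14.3%, and for 6.60% in *HAP1*. From harvest 1 to 2 to 3, *HAP2* averaged 14.98 ± 0.493, 16.6 ± 1.69 and 17.7 ± 2.54 CPM (SD, n = 6, 7 and 12). *HAP5* averaged 17.3 ± 2.08, 15.1 ± 2.10 and 15.02 ± 1.75 CPM, *HAP4* 225 ± 93.9, 190.2 ± 34.7 and 180.2 ± 75.8 CPM, and *HAP1* 463 ± 36.4, 471 ± 37.5 and 486 ± 39.3 CPM in the same order. *HAP3* averaged 17.4 ± 0.767, 17.3 ± 0.677 and 18.2 ± 1.04 CPM. *HAP2* had the narrowest range in harvest 1, from 14.4 to 15.6 CPM, within the 13.8 to 21.8 CPM of harvest 3.

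**Figure D3:**
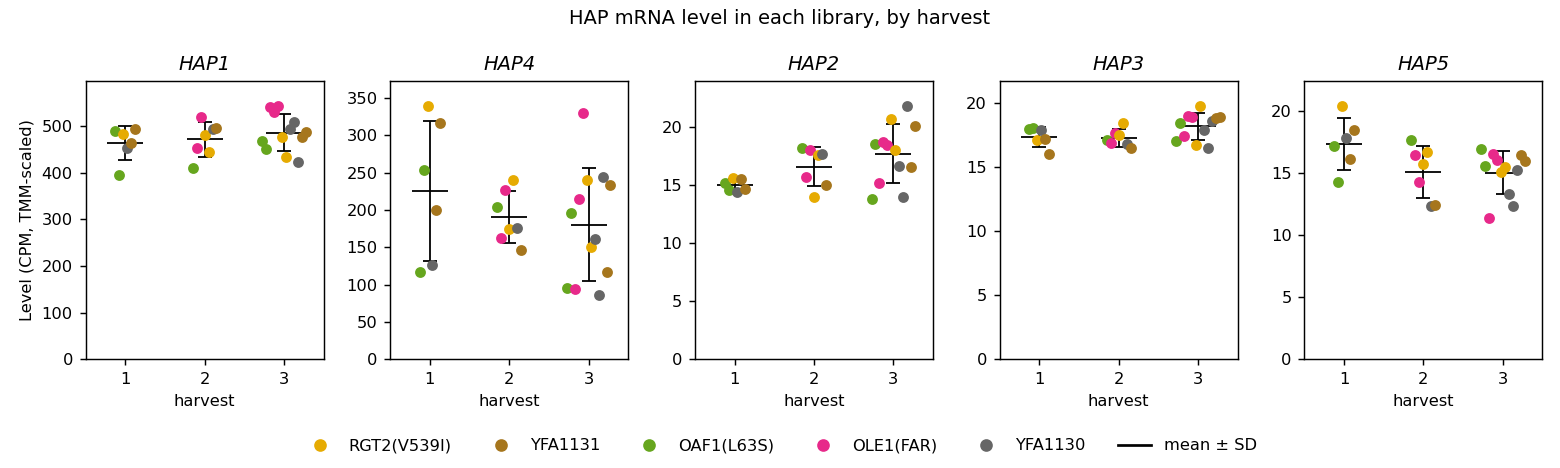
Level of each HAP gene (vertical axis, CPM after TMM scaling, from 0) by harvest (horizontal axis); points are libraries coloured by strain and bars are the mean ± SD of 6, 7 and 12 libraries. *HAP5* averaged 17.3 CPM in harvest 1 and 15.1 and 15.02 CPM in harvests 2 and 3, with overlapping ranges.

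For harvests 2 and 3 against harvest 1, edgeR and DESeq2 called 0 of 5 members, beside 2.19% of all genes, and at an unadjusted p under 0.05 there were 0 of 5, beside 11.5%. With all libraries the largest value was that of *HAP5*, at -0.26 (SE 0.14, edgeR adjusted p = 0.52), which ran from -0.35 to -0.078 with single libraries left out (nearest zero without *OAF1(L63S)* culture A, and -0.17 without YFA1130 culture A). Without surrogate variables, 30% of all genes passed the FDR, and *HAP5* was among them at -0.20 (SE 0.078, edgeR adjusted p = 0.079), while *HAP4* had -0.51 (SE 0.29, edgeR adjusted p = 0.21) in place of 0.058 (SE 0.18). Without *OAF1(L63S)* culture A and *OLE1(FAR)* culture C, with surrogate variables, the largest value was that of *HAP2*, at 0.44 in place of 0.040. In that fit 0 of 5 members had an unadjusted p under 0.05, and 2 genes passed the FDR as higher and 2 as lower of 5718. For harvest 3 against harvest 2, 0 of 5 members were called by edgeR or DESeq2, beside 0.0525% of all genes, and 0 of 5 had an unadjusted p under 0.05, beside 4.95%. *HAP4* had -0.24 (SE 0.12) here, 0.13 (SE 0.26) without surrogate variables, and -0.33 to -0.054 with single libraries left out (nearest zero without *OLE1(FAR)* culture D, and -0.16 without YFA1130 culture A). Without surrogate variables 3.29% of genes passed this FDR and again no member. The surrogate variables themselves followed some members. Over the 25 libraries *HAP4* had r = -0.69 with the first and r = -0.59 with the second, and *HAP2* had r = -0.83 with the second. Since each is estimated from all genes of the same libraries, the members included, these r are descriptions.

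Among genes that the Hap2/3/4/5 complex is known to activate, several were higher in *RGT2(V539I)* than in YFA1131, while no HAP gene was called. Of 23 such genes, 10 passed the FDR as higher and 0 as lower in edgeR, with 17 and 0 at an unadjusted p under 0.05, while over all 5713 genes 48 passed as higher and 12 as lower. DESeq2 called 10 as well. Of the 23, 21 had a positive log2 fold change, with a median of 0.20 beside -0.0073 over all genes. *CYC1*, which encodes iso-1-cytochrome c, was at 24.7, 21.8, 28.5, 22.4 and 21.4 CPM in *RGT2(V539I)* cultures B, C, D, F and G, against 19.4, 19.6, 16.3, 12.7 and 11.1 CPM in YFA1131 cultures A, B, C, E and F. All 5 cultures of *RGT2(V539I)* lay above all 5 of YFA1131, with a log2 fold change of 0.59 (SE 0.094, edgeR adjusted p = 0.0041). The other wild type, YFA1130, was at 16.3 to 23.3 CPM of *CYC1*, which overlapped *RGT2(V539I)*. *CYT1*, the gene of cytochrome c1, had 0.39 (SE 0.060, edgeR adjusted p = 0.0038) with overlapping ranges of 66.6 to 102 CPM in *RGT2(V539I)* and 50.5 to 80.3 CPM in YFA1131. *QCR2*, encoding a core subunit of the cytochrome bc1 complex, had 0.28 (SE 0.039, edgeR adjusted p = 0.0015).

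*COX4*, a subunit gene of cytochrome c oxidase, was at 63.6 to 87.8 CPM in *RGT2(V539I)* and at 48.2 to 59.9 CPM in YFA1131, without overlap, and had a log2 fold change of 0.35 (SE 0.072, edgeR adjusted p = 0.032). *SDH3*, a membrane subunit gene of succinate dehydrogenase, was at 112 to 138 CPM in *RGT2(V539I)* and at 91.3 to 109 CPM in YFA1131 and had 0.25 (SE 0.051, edgeR adjusted p = 0.032). The other wild type, YFA1130, overlapped *RGT2(V539I)* in both genes, at 56.0 to 69.1 CPM for *COX4* and 89.1 to 117 CPM for *SDH3*. In YFA1131 against YFA1130, *COX4* had -0.20 (SE 0.067, edgeR adjusted p = 0.34) and *SDH3* -0.074 (SE 0.047, edgeR adjusted p = 0.65). The other 5 called targets, *RIP1*, *PET9*, *COX6*, *SDH2* and *COX5A*, had values from 0.23 to 0.30. They fall outside the rule for named genes and are named to complete the count. The citric acid cycle genes *ACO1* (-0.059) and *CIT1* (-0.025) were the 2 with a negative value. Of the 10 called targets 6 held the CCAATNA letters upstream, and *CYC1*, *CYT1*, *QCR2* and *COX4* did not in this window.

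**Figure D4:**
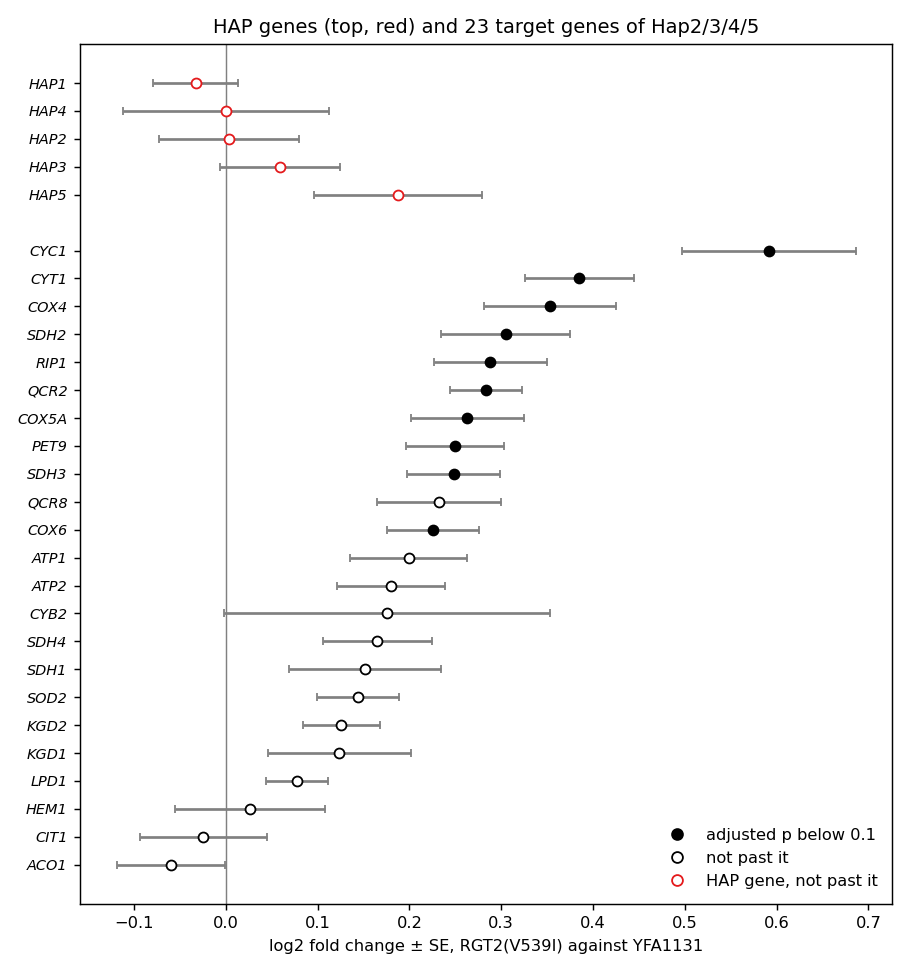
Log2 fold change ± SE in *RGT2(V539I)* against YFA1131 (horizontal axis) of the 5 HAP genes, at the top in red, and of 23 target genes of Hap2/3/4/5; filled points passed the 10% FDR in edgeR. The 10 filled points lie between 0.23 and 0.59, while the HAP genes lie between -0.033 and 0.19.

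The number of targets called higher depended on single libraries. It was 3 without YFA1131 culture A, 4 without YFA1131 culture B, 3 without *RGT2(V539I)* culture B and 4 without *RGT2(V539I)* culture G. Calls over all genes, in either direction, fell as well, to 17, 20, 22 and 20 in these fits from 60 with all libraries. The loss was thus not particular to the targets. Without surrogate variables it was 8 (31 of all genes called higher). Without *OAF1(L63S)* culture A and *OLE1(FAR)* culture C it was 15 (80 of all genes called higher). With both wild types as the reference it was 4, and with genotype as the only term 0. *COX4* was past the FDR under all but 5 of 21 alternatives and *SDH3* under all but 6, among them those without YFA1131 culture A, YFA1131 culture B or *RGT2(V539I)* culture B. In these 3 fits *COX4* was at 0.28, 0.34 and 0.22. With single libraries left out *SDH3* stayed between 0.23 and 0.27. *QCR2* and *CYT1* were past it under all but the fit with genotype alone, and *CYC1* under all but that and the fit with both wild types.

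In the other strain comparisons with all libraries the targets were not called, at medians closer to zero. In *OAF1(L63S)* 0 of 23 passed the FDR in edgeR and 4 had an unadjusted p under 0.05, all higher. There 22 of 23 were positive, with a median of 0.081 beside -0.0063 over all genes. Without the libraries that go against their labels 3 passed, beside 1.64% of all genes. The smallest unadjusted p among the listed genes was that of *PET9*, the ADP/ATP carrier gene, with a log2 fold change of 0.17 (SE 0.050, edgeR adjusted p = 0.20). It was called at 0.20 without *OAF1(L63S)* culture A (edgeR adjusted p = 0.083), 0.21 without that culture and *OLE1(FAR)* culture C (edgeR adjusted p = 0.038), 0.18 by DESeq2 (adjusted p = 0.074) and 0.20 with library preparation at 4 levels (edgeR adjusted p = 0.097), and was 0.093 without YFA1130 culture G (edgeR adjusted p = 0.67). Over 21 alternatives the adjusted p ran from 0.038 to 1 (edgeR or DESeq2). In *OLE1(FAR)* 0 of 23 passed in edgeR and 2 had an unadjusted p under 0.05, 1 in each direction, with a median of -0.045 beside 0.00091. *QCR8*, encoding a small bc1 complex subunit, had -0.23 (SE 0.066, edgeR adjusted p = 0.21). It was called at -0.26 without YFA1130 culture A (edgeR adjusted p = 0.094), and had -0.18 without *OAF1(L63S)* culture A and *OLE1(FAR)* culture C and -0.0012 without surrogate variables. Without those libraries 0 of 23 targets passed in *OLE1(FAR)* in edgeR and 2 had an unadjusted p under 0.05, both lower. Between YFA1131 and YFA1130 0 of 23 passed in edgeR, and at an unadjusted p below 0.05 there were 8, of which 6 were lower, with a median of -0.074 beside 0.0025. With the same libraries left out, 2 passed as lower in YFA1131 and 13 were lower at an unadjusted p under 0.05, with a median of -0.13 beside 0.0042. Over all 5718 genes of that fit 46 passed as higher and 38 as lower, against 1 and 6 of 5713 with all libraries. At that unadjusted p 357 genes were lower, against 265 with all libraries. *CYC1* averaged 15.8 ± 3.86 CPM in YFA1131 and 19.6 ± 2.58 CPM in YFA1130 (SD, n = 5 each).

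The harvest comparison of the targets depended both on the surrogate variables and on the libraries whose check genes went against their labels. With all libraries and surrogate variables the median of the 23 was 0.040, with 17 positive. Leaving out *OAF1(L63S)* culture A and *OLE1(FAR)* culture C, still with surrogate variables, it was -0.35 beside 0.012 over all genes, with 21 negative, 10 lower at an unadjusted p under 0.05 and 1 called lower in edgeR. Over all 5718 genes of that fit 216 were lower at that unadjusted p and 2 were called lower. In the fit with all libraries and no surrogate variables 18 of 23 targets were lower in harvests 2 and 3 than in harvest 1 and 0 higher, beside 880 genes higher and 836 lower of 5713. With all libraries and surrogate variables *QCR8* alone was called, at 0.53 (SE 0.11, edgeR adjusted p = 0.010). Its value was -0.20 without surrogate variables, 0.34 without *OAF1(L63S)* culture A and -0.17 without both that culture and *OLE1(FAR)* culture C, none of these past the FDR. For harvest 3 against harvest 2, 0 of 23 passed in edgeR with surrogate variables, with 1 at an unadjusted p under 0.05, and 5 passed without them, all lower. Without the libraries that go against their labels 0 passed and 8 were lower at an unadjusted p under 0.05 in edgeR, with a median of -0.11. Over all 5718 genes of that fit 185 were lower at that unadjusted p.

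Of 9 genes listed as targets of Hap1, 3 were called higher in *RGT2(V539I)* and 0 lower, beside 48 higher and 12 lower of all 5713 genes. The 3 were *CYC1* and *CYT1*, which the list of Hap2/3/4/5 targets holds as well, and the flavohemoglobin gene *YHB1*, at 0.21 (SE 0.043, edgeR adjusted p = 0.032) and 0.13 without surrogate variables (edgeR adjusted p = 0.82). *YHB1* was at 611 to 735 CPM in *RGT2(V539I)*, 473 to 690 CPM in YFA1131 and 549 to 779 CPM in YFA1130. YFA1131 had its lowest mean of the 5 strains, and against YFA1130 had -0.17 (SE 0.040, edgeR adjusted p = 0.12). Of 22 other regulators of respiratory genes, 1 was called higher and 1 lower in *RGT2(V539I)*, and both are named after their values were seen. *ADR1*, an activator of glucose-repressed genes, was at 38.5, 44.2, 32.8, 39.7 and 35.5 CPM in *RGT2(V539I)*, above the 28.1, 30.5, 31.5, 30.4 and 26.5 CPM in YFA1131 throughout (log2 fold change 0.37, SE 0.084, edgeR adjusted p = 0.056). Of the 5 strains YFA1131 had the lowest mean of *ADR1*, at 29.4 ± 2.06 CPM, while *RGT2(V539I)* averaged 38.1 ± 4.33 CPM and the other wild type, YFA1130, 37.9 ± 5.12 CPM (SD, n = 5 each). *MIG2*, a repressor made in glucose, was at 91.4 to 144 CPM in *RGT2(V539I)* and at 121 to 166 CPM in YFA1131 (log2 fold change -0.33, SE 0.074, edgeR adjusted p = 0.052). YFA1131 had the highest mean of *MIG2* of the 5 strains, at 148 ± 21.6 CPM. *RGT2(V539I)* averaged 114 ± 20.6 CPM and YFA1130 122 ± 33.1 CPM (SD, n = 5 each). The range of YFA1130 held that of *RGT2(V539I)*. Against YFA1130, YFA1131 had 0.21 for *MIG2* (SE 0.069, edgeR adjusted p = 0.33). The values in *RGT2(V539I)* without surrogate variables were 0.37 (edgeR adjusted p = 0.10) for *ADR1* and -0.23 (edgeR adjusted p = 0.81) for *MIG2*. Neither was past the FDR. Leaving out single libraries ended the call of *ADR1* in 6 of 10 fits, with log2 fold changes of 0.31 to 0.41 in these, and that of *MIG2* in 7 of 10, with -0.33 to -0.26. *YHB1* lost its call in 3 of 10, without YFA1131 culture A, YFA1131 culture F or *RGT2(V539I)* culture B, at 0.18 to 0.23.

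*ADR1* also had the smallest unadjusted p of the listed genes between the wild types, lower in YFA1131 than in YFA1130 by a log2 fold change of -0.33 (SE 0.077, edgeR adjusted p = 0.12). Alternatives called it at -0.32 (DESeq2, adjusted p = 0.065), -0.34 without isolation batch as a replicate block (edgeR adjusted p = 0.069), -0.33 without YFA1130 culture E (edgeR adjusted p = 0.097), -0.35 without *OAF1(L63S)* culture A and *OLE1(FAR)* culture C (edgeR adjusted p = 0.073) and -0.45 with library preparation at 4 levels (edgeR adjusted p = 0.023). Over 20 alternatives the adjusted p ran from 0.023 to 0.74 (edgeR or DESeq2). *MIG2* was lower in harvests 2 and 3 than in harvest 1 at -0.46 (SE 0.11, edgeR adjusted p = 0.056), and between -0.58 and -0.29 over 33 alternatives, with adjusted p between 0.0098 and 0.75 (edgeR, or DESeq2 for 1 of them). Without isolation batch as a replicate block it was -0.29 (edgeR adjusted p = 0.27), and leaving out single libraries ended the call in 7 of 25 fits. Without *OAF1(L63S)* culture A and *OLE1(FAR)* culture C, edgeR called 0 of the 22 regulators in harvests 2 and 3. Then 0 of 22 had an unadjusted p under 0.05, *MIG2* included. Over all 5718 genes of that fit 2 were called higher and 2 lower. For harvest 3 against harvest 2, *MIG2* had -0.29 (SE 0.081, edgeR adjusted p = 0.43). In *OAF1(L63S)*, *OLE1(FAR)*, YFA1131 against YFA1130 and harvest 3 against harvest 2, edgeR called 0 of the 22 regulators and 0 of the 9 Hap1 targets. With an unadjusted p under 0.05 there were 1, 2, 5 and 1 of the regulators and 2, 1, 2 and 1 of the Hap1 targets in these comparisons. The shares of all genes were 6.11%, 7.75%, 9.71% and 4.95%. When *OAF1(L63S)* culture A and *OLE1(FAR)* culture C were left out, edgeR called 0 regulators and 0 Hap1 targets in *OAF1(L63S)* and *OLE1(FAR)*, with 1 and 2 of the regulators and 3 and 0 of the Hap1 targets at an unadjusted p under 0.05. Of all genes, 6.89% and 6.35% were under it in these fits. Between YFA1131 and YFA1130 edgeR then called 1 regulator higher and 1 lower, beside 46 genes higher and 38 lower of 5718.

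Genes whose levels ran most like a member were taken by Pearson's r of log2 CPM over the 25 libraries, among 5440 other genes with at least 10 counts in every library. Libraries share their depth and batches, so r describes likeness and nothing further. *HAP4* was most like *YRO2* (YBR054W, a membrane protein gene; r = 0.94), *RTC3* (YHR087W; r = 0.91) and *PHM8* (YER037W, a phosphatase gene; r = 0.91). After subtracting harvest means these were 0.96, 0.93 and 0.92, and without the 2 libraries farthest from the median of *HAP4* they were 0.92, 0.90 and 0.89. There were 120 genes with r above 0.7 with *HAP4* and 72 below -0.7.

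**Figure D5:**
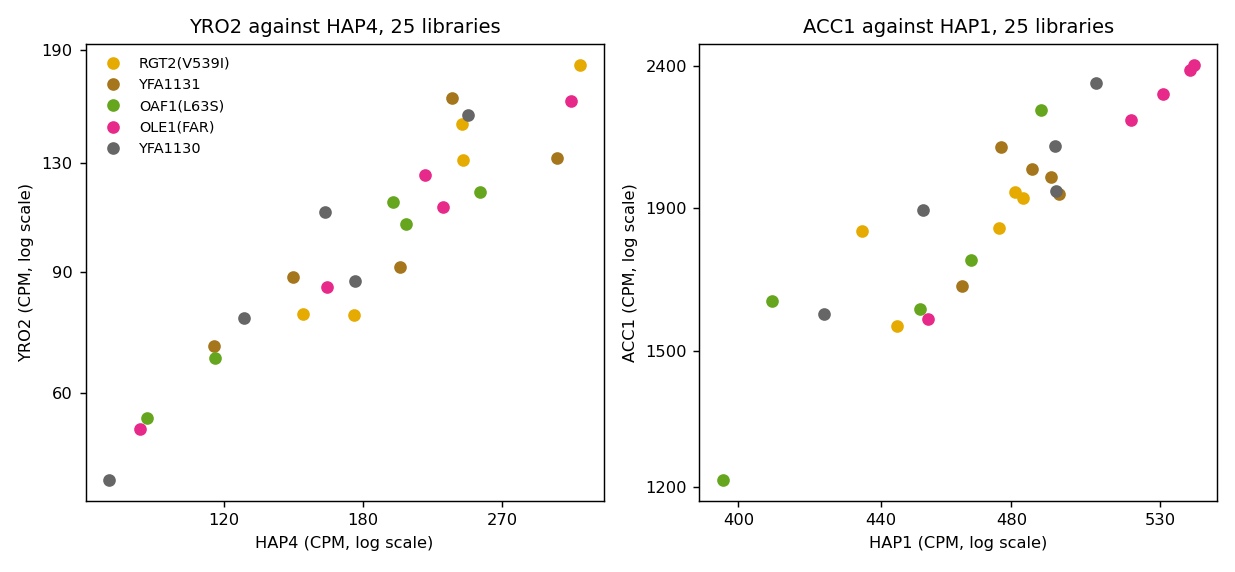
Levels in 25 libraries on log axes (CPM), coloured by strain; left, *YRO2* against *HAP4* (r = 0.94), right, *ACC1* against *HAP1* (r = 0.90). The *OLE1(FAR)* libraries other than culture C lie at the top right of the *HAP1* plot, at 519.9 to 542 CPM of *HAP1*, while strains are mixed along the *HAP4* plot.

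*HAP1* was most like the fatty acid synthesis genes *ACC1* (YNR016C; r = 0.90) and *FAS1* (YKL182W; r = 0.89), followed by the Ty1 gene YML045W (r = 0.86). The values were 0.88, 0.87 and 0.81 after subtracting strain means. These means followed the kept labels, *OAF1(L63S)* culture A and *OLE1(FAR)* culture C included. Differences between these strains may therefore remain in those values, and likeness free of strain was not tested. None of the stretches of 31 bases in *HAP1* occurs in YML045W. *HAP2* was most like *APJ1* (YNL077W, a chaperone gene; r = 0.83), *GID8* (YMR135C, a ubiquitin ligase subunit gene; r = 0.83) and YBL086C (r = 0.83). *HAP3* had no gene above r = 0.71, with *TAH1* (YCR060W) at that value, *LSM3* (YLR438C-A) at 0.67 and *AIR2* (YDL175C) at 0.66. *HAP5* was most like *IRC24* (YIR036C; r = 0.73), *PRC1* (YMR297W; r = 0.72) and *MXR2* (YCL033C; r = 0.72). Counts of *HAP2*, *HAP3* and *HAP5* were low, and weak likeness in such counts is no finding.

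No member was among the 3 genes most like another member. The highest r among their 10 pairs was 0.49, between *HAP2* and *HAP3*, followed by 0.48 between *HAP2* and *HAP4*, which was 0.71 after subtracting harvest means. *HAP1* had negative r with all 4 subunits, from -0.29 with *HAP5* to -0.080 with *HAP2*. The 23 targets had a median r of 0.32 with *HAP4*, with 22 of 23 positive, beside -0.0031 over all 5440 genes. After subtracting harvest means the median was 0.22, with 19 of 23 positive, beside -0.0045 over all genes. The citric acid cycle gene *CIT1* (r = 0.60) and *SDH4*, a succinate dehydrogenase subunit gene (r = 0.60), were at the top of that list, and no target reached the r of *YRO2*. The 21 listed regulators with at least 10 counts in every library had a median r of 0.022 with *HAP4*, with 11 positive. They ran from -0.43 for *SRO9* to 0.76 for *HSP82*, a chaperone gene, and *MIG2* had r = 0.70. Of the Hap1 targets, *CTT1*, the cytosolic catalase gene, had r = 0.68 with *HAP4*, and the sterol genes *HMG1* and *ERG11* had r = -0.57 each.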

How the data were processed

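The authors trimmed 25 libraries with Trimmomatic 0.38, and deposited the estimated counts per gene from kallisto (Ensembl transcripts on sacCer3), without normalization. Of these estimated counts, 6.55% were not whole, and all were rounded. All 25 libraries were fitted together with edgeR 4.0.16 (R 4.3.3; TMM scaling, quasi-likelihood test) on 5713 genes with a count above 0 in every library. Terms were genotype, harvest, RNA isolation and library preparation batch, and 2 surrogate variables (sva 3.50.0), after the study's design. P-values were adjusted over all genes by the Benjamini-Hochberg method, with calls at an FDR of 10%. DESeq2 1.42.0 was an alternative. CPM were computed with TMM-scaled library sizes, and log2 CPM used a prior count of 2. Surrogate variables changed the harvest comparisons most, so harvest values are also given without them. Batches are those the study lists for each library; every isolation batch held 1 culture of each strain and served as the replicate block. The transcript integrity filter of the study was not used here.

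The genes, target lists and regulators were chosen with earlier results of these data known, from general knowledge of the pathway. Named are all 5 members; per comparison up to 6 list genes with the smallest adjusted p among those past the FDR, otherwise the 1 with the smallest unadjusted p; and the 3 genes most like each member. Alternatives were other tests, terms, filters, references and libraries left out. Repeating the target count and named target genes under them was decided after seeing the data.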

Additional observations from a re-analysis of the deposited data

Results flagged for a closer look

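Among 25 groups of 5 cultures (5 genes in 5 strains), 1 held a culture far from the others, and chance flags about 1 in 20 groups. *HAP1* in *OLE1(FAR)* culture C was at 454 CPM, and the gap to the next culture was 0.747 of the range of that strain, above the limit of 0.71. This is a library whose check genes went against its label. The part of that in the gap was not tested.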

How the results depend on the processing

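Of 745 log2 fold changes of the 5 members under alternatives, 663 kept their sign and their side of the FDR, 79 changed sign and 3 became past the FDR. No value that changed sign was above 0.24 in size as reported. In *OLE1(FAR)* 1 member was called by DESeq2, and 0 to 1 with each library left out; the harvest fit without surrogate variables called 1. The targets called higher in *RGT2(V539I)* numbered 0 with genotype only, 6 with library preparation at 4 levels, 4 with both wild types as reference and 3 to 10 with each library left out. Changed signs were as follows, by setting. With library preparation at 4 levels, *HAP2* and *HAP4* were at -0.00887 and -0.070 in *RGT2(V539I)*, *HAP3* at -0.0051 in *OAF1(L63S)*, *HAP2* at 0.040 in *OLE1(FAR)*, and *HAP1*, *HAP2* and *HAP3* at -0.00894, 0.027 and 0.039 in YFA1131 against YFA1130. Without the replicate block of isolation batches, *HAP2* was at -0.00356 in *RGT2(V539I)*, *HAP1*, *HAP2* and *HAP3* at -0.00279, 0.00370 and 0.0018 in YFA1131, *HAP4* at -0.16 in harvests 2 and 3, and *HAP1* at -0.036 in harvest 3 against 2. Calls over all genes without this block were 12 in YFA1131 (7 with it), 220 in harvests 2 and 3 (125) and 35 in harvest 3 against 2 (3), and the block changed no call of a member. With both wild types as reference, *HAP2* was at -0.00986 in *RGT2(V539I)*, and *HAP4* at -0.0051 in *OAF1(L63S)* and -0.019 in *OLE1(FAR)*. With no filter, *HAP4* was at -0.0042 in *RGT2(V539I)*. Without *OAF1(L63S)* culture A and *OLE1(FAR)* culture C, *HAP2* was at -0.044 in *RGT2(V539I)*, 0.022 in YFA1131 and 0.041 in harvest 3 against 2, and *HAP4* and *QCR8* at -0.16 and -0.17 in harvests 2 and 3. Without surrogate variables, *HAP2* was at 0.025 in *OLE1(FAR)*, *HAP3* at 0.0033 in YFA1131, *HAP1*, *HAP4* and *QCR8* at 0.058, -0.51 and -0.20 in harvests 2 and 3, and *HAP2*, *HAP4* and *HAP5* at 0.13, 0.13 and 0.065 in harvest 3 against 2. Without both, *HAP2* was at 0.074 in *OLE1(FAR)* and *HAP3* at 0.00063 in YFA1131. With genotype only, *HAP2* was at 0.030 in *OLE1(FAR)*, and in the 2 wild types fitted alone *HAP2* and *HAP3* were at 0.0096 and 0.019. With genotype and harvest only, *HAP1*, *HAP3*, *HAP4* and *QCR8* were at 0.0015, 0.020, -0.34 and -0.078 in harvests 2 and 3, and *HAP2* and *HAP5* at 0.097 and 0.024 in harvest 3 against 2. With each library left out, *RGT2(V539I)* gave -0.060 to 0.010 for *HAP1*, -0.038 to 0.082 for *HAP2* and -0.14 to 0.080 for *HAP4*, *OAF1(L63S)* -0.065 to 0.027 for *HAP2* and -0.0054 to 0.057 for *HAP3*, and *OLE1(FAR)* -0.035 to 0.053 for *HAP2* and -0.045 to 0.19 for *HAP4*. YFA1131 gave -0.025 to 0.040 for *HAP1*, -0.081 to 0.037 for *HAP2* and -0.056 to 0.031 for *HAP3*, harvests 2 and 3 gave -0.025 to 0.12 for *HAP2* and -0.31 to 0.21 for *HAP4*, and harvest 3 against 2 gave -0.022 to 0.055 for *HAP1* and -0.12 to 0.043 for *HAP5*. The cause of these changes was not tested. Over all alternatives the calls among all genes ran from 4 to 98 in *RGT2(V539I)* (60 as reported), 3 to 102 in *OAF1(L63S)* (70), 1 to 72 in *OLE1(FAR)* (50), 1 to 84 in YFA1131 (7), 4 to 1716 in harvests 2 and 3 (125) and 0 to 188 in harvest 3 against 2 (3). Counts of 123 to 270 limit *HAP2*, *HAP3* and *HAP5*, whose counting error alone was 7.11% to 7.63%.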
